A study of Gallus gallus with 54 samples.

Results

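Retina of chick eyes that wore a diffuser and received an injection of ADTN, a dopamine receptor agonist, was compared at 4 h with retina of eyes that wore the diffuser alone. Form-deprivation myopia (FDM) is the condition that such a diffuser induces: form vision is lost and the eye grows too long. The comparison was selected by condition and time, and it holds 4 libraries of FDM with ADTN (called ADTN here) and 4 libraries of FDM, 8 of the 54 libraries in the series. It was read over all genes, and 15746 of 24599 entries had enough counts to be tested.

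All birds were male White Leghorn chicks raised for 6 days with 12 h of light per day, and they were 7 days old at collection in the 4 h groups. Beside the main pair, ADTN at 4 h was set against 12 other injected libraries, namely FDM with atropine, FDM with pirenzepine (both antagonists of muscarinic acetylcholine receptors) and FDM with TPMPA (which blocks GABA-C receptors), each with n = 4. ADTN and FDM at 24 h (n = 4 each) came from birds 8 days old, and the drug groups of that time had received another injection 4 h before collection. Untreated retina at 4 h (n = 4) is given as a level only. Recovery retina at 4 h (n = 3), from birds whose diffuser was removed after 3 days of wear, is shown in a figure only. Injections were intravitreal. The labels give neither the dose nor whether each library came from a separate bird, and no vehicle-injected group was analysed here. Drug and injection therefore cannot be told apart in the comparison of ADTN with FDM, and p-values measure the spread between samples, which may be technical.

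In the retina dopamine is released by a sparse class of amacrine cells, more in light than in darkness. One family of its receptors raises cyclic AMP and the other lowers it, and the receptor of photoreceptors belongs to the family that lowers it. Dopamine is known there as a day signal that adapts the retina to light, restrains melatonin synthesis and resets the retinal clock. Form deprivation is known to lower retinal dopamine in chicks, and agonists such as ADTN are known to slow the growth of deprived eyes.

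With ADTN, 66 entries rose and 53 fell, which is 0.419% and 0.337% of the 15746 tested, or 0.756% in all. A call means an adjusted p under 0.05 by the quasi-likelihood test of edgeR with Benjamini-Hochberg adjustment over all entries; 2307 entries had an unadjusted p under 0.05. Rises were larger than falls: the median rise was 2.28-fold and the median fall 1.43-fold, and 37 rises but 7 falls exceeded 1 on the log2 scale. Genes that rose were less abundant, with a median of 23.4 CPM (counts scaled to a common library size after TMM normalisation) against 114 CPM for genes that fell. The libraries did not overlap between the groups for 50 of the 66 and 33 of the 53, while 5.79% of all tested entries did not overlap (3.09% higher and 2.7% lower). The median change of all entries was 0.00098 on the log2 scale. TMM normalisation places this median near 0, so it does not measure a shift common to all genes.

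Levels of tissue next to the neural retina, of small nuclear RNA and of depth differed between the libraries. Genes of blood vessels and of the pecten, a pigmented vascular fold in the bird eye, summed to 928 to 1281 CPM in the ADTN libraries and 697 to 937 CPM in the FDM libraries. Leukocyte and microglial genes summed to 168 to 215 CPM with ADTN and 134 to 152 CPM in FDM, and red cell genes to 2.74 to 30.4 CPM with ADTN and 0.652 to 3.43 CPM in FDM. Pigment epithelium and choroid genes overlapped (1465 to 2128 CPM with ADTN, 1197 to 2598 CPM in FDM). The nuclear RNA 7SK stood at 61.5, 75.2, 91.2 and 3.34 CPM in ADTN libraries 1 to 4, against 97.6, 5.68, 5.34 and 9.76 CPM in FDM libraries 1 to 4, so ADTN library 4 and FDM library 1 each stood apart from their group. Total counts were 13.3 to 19.4 M with ADTN and 7.4 to 15.1 M in FDM. Defining markers of retina were present, with NEFL of ganglion cells at 552 CPM and GLUL of Müller glia at 1246 CPM in the ADTN mean. With 7SK as a covariate 32 of the 119 calls held, with the vessel score 11 and with the level of the clock gene ARNTL 10.

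The genes lowered by ADTN against FDM and also against the other injected groups were SLC4A5, OPN4-1 and CADPS2. These comparisons share the ADTN libraries, so their values are given side by side. Against the other injected groups 6 entries were called, 0.0381% of those tested, with 1 higher (0.00635%) and 5 lower (0.0318%); 2210 had an unadjusted p under 0.05. The count of 6 was 3 without ADTN library 1 or 3, 98 without ADTN library 4, 159 and 13 without TPMPA library 1 and 2, 23 without atropine library 1, and 22 and 10 without pirenzepine library 1 and 3.

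SLC4A5 encodes a sodium bicarbonate cotransporter, known from the choroid plexus and kidney, that moves base across epithelial membranes (ENSGALG00000032146, chromosome 22, 2895458 to 2913802, galGal5). It stood at 144, 119.8, 123 and 133 CPM in ADTN libraries 1 to 4, against 161, 196, 192 and 192 CPM in FDM libraries 1 to 4. Every ADTN library lay below every FDM library, and also below all 12 other injected libraries, which averaged 183 ± 11 CPM with atropine, 175 ± 12.1 CPM with pirenzepine and 197 ± 8.09 CPM with TPMPA. The gene fell by 0.51 ± 0.08 on the log2 scale against FDM (± SE, adjusted p = 0.000348) and by 0.51 against the other injected groups (adjusted p = 3.28e-05). Leaving out any single library kept both calls (adjusted p up to 0.00679 against FDM and 0.0011 against the other injected groups). The call against FDM also held with the vessel score (0.00685), ARNTL (0.0462) or 7SK (0.000549) as a covariate. Untreated retina held 164 ± 12.5 CPM. At 24 h the ADTN libraries were again all lower, at 134, 139, 119.9 and 146 CPM against 162, 177, 148 and 175 CPM in FDM, but the difference of -0.30 did not pass (adjusted p = 0.215).

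OPN4-1 encodes a melanopsin, the photopigment of intrinsically photosensitive cells, which in birds include ganglion and horizontal cells (ENSGALG00000041662, chromosome 4, 37518259 to 37532248). Its levels were 56.1, 66.8, 64.4 and 56.1 CPM with ADTN against 86.7, 99.6, 128 and 105 CPM in FDM. ADTN lay below FDM in every library, and below all 12 other injected libraries. Against FDM it fell by 0.79 ± 0.14 (adjusted p = 0.00141), which held without any single library (up to 0.024). Against the other injected groups it fell by 0.58 (adjusted p = 0.0174; up to 0.243 without ADTN library 1 or 3); their means were 92.1 ± 14.9 CPM with atropine, 85.7 ± 4.59 CPM with pirenzepine and 95.9 ± 9.16 CPM with TPMPA. At 24 h the same order held, with 50.1 to 56.6 CPM in ADTN and 70.6 to 92.6 CPM in FDM (log2 change -0.53, adjusted p = 0.191). The other melanopsin gene, OPN4, averaged 109 CPM with ADTN and 126 CPM in FDM (-0.20, adjusted p = 0.58). OPN4-1 was the single call among 8 listed non-visual opsin entries, of which 7 had a negative change. Over all tested entries 0.337% were called lower and 50.1% had a positive change. The median of the 8 was -0.29 against FDM at 4 h, -0.11 against the other injected groups and 0.05 against FDM at 24 h. A pinopsin-like entry outside that list, ENSGALG00000016802, was also called lower (-0.46). Its call held in 2 of the 8 fits that left out a single library (adjusted p up to 0.142).

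CADPS2, which primes dense-core vesicles for the release of peptides and amines (ENSGALG00000008926, chromosome 1, 22528298 to 22829235), stood at 11.7, 8.84, 9.99 and 9.42 CPM with ADTN, against 16.5, 15.5, 13.3 and 16.6 CPM in FDM. It fell by 0.63 ± 0.14 (adjusted p = 0.0232), with no overlap. The call was lost without ADTN library 2 or 3 or FDM library 2 or 4 (adjusted p up to 0.117). It was also the single gene called in the same direction at both times among those that fell: at 24 h it held 10.8, 8.09, 11.1 and 8.74 CPM with ADTN, against 14, 16.4, 20.01 and 16.5 CPM in FDM, and fell by 0.78 ± 0.14 (adjusted p = 0.0242; up to 0.114 without ADTN library 2 or FDM library 3 of that time). Atropine libraries overlapped with ADTN (10.3, 14.7, 10.8 and 14.7 CPM), whereas pirenzepine averaged 17.1 ± 1.24 CPM and TPMPA 16.4 ± 1.88 CPM; against all 3 groups together CADPS2 fell by 0.61 (adjusted p = 0.0174; up to 0.171 without ADTN library 2 or 3).

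**Figure D1:**
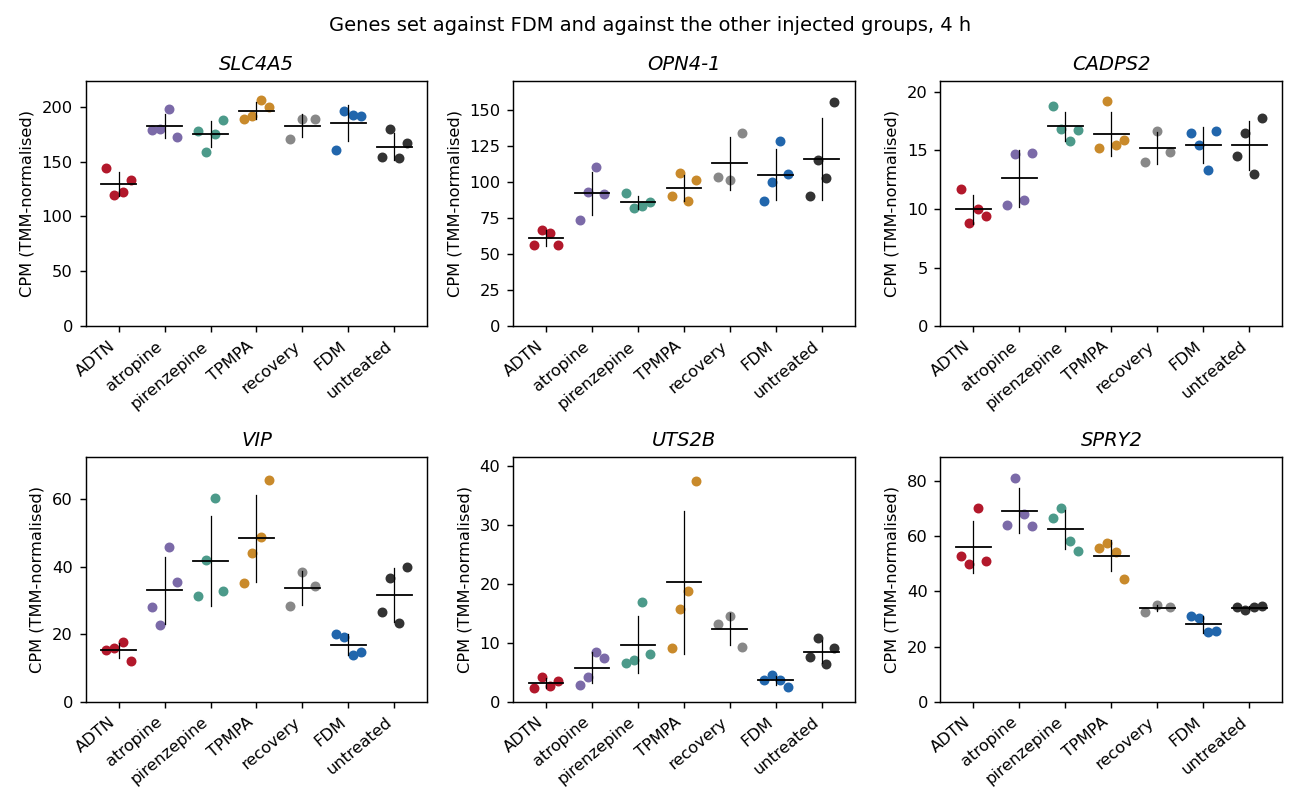
CPM of 6 genes in each 4 h library (points), by group, with the group mean and SD (lines). Recovery birds (n = 3) had their diffuser removed after 3 days of wear. ADTN libraries of SLC4A5 and OPN4-1 lie below all FDM and other injected libraries; VIP and UTS2B lie low in ADTN and in FDM, at means of 15.3 and 17.0 CPM for VIP, and higher in the other injected groups; SPRY2 is high in all 4 injected groups.

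Both peptide genes called against the other injected groups were at the level of FDM with ADTN. VIP, the vasoactive intestinal peptide of a set of amacrine cells (chromosome 3, 49646763 to 49653486), stood at 15.2, 15.8, 17.8 and 12.2 CPM with ADTN, against 20.1, 19.2, 13.8 and 14.8 CPM in FDM. These overlap, and the difference was -0.14 ± 0.24 (adjusted p = 0.82). The other injected libraries all lay above the ADTN libraries, with means of 33.1 ± 9.96 CPM (atropine), 41.6 ± 13.3 CPM (pirenzepine) and 48.5 ± 12.9 CPM (TPMPA), and untreated retina held 31.7 ± 7.96 CPM. Against those 3 groups VIP fell by 1.41 on the log2 scale with ADTN (95% interval -1.81 to -1.0, adjusted p = 9.58e-05). UTS2B, a urotensin-related peptide (chromosome 9, 13751029 to 13757813), averaged 3.20 ± 0.786 CPM with ADTN and 3.63 ± 0.83 CPM in FDM (-0.18 ± 0.35, adjusted p = 0.848). Its means were 5.77 ± 2.65 CPM with atropine, 9.70 ± 4.85 CPM with pirenzepine and 20.3 ± 12.2 CPM with TPMPA, and ADTN fell by 1.71 against them (interval -2.30 to -1.11, adjusted p = 0.00244), with overlap in the atropine libraries. The call of VIP held without any single library (adjusted p up to 0.00512), and that of UTS2B was lost without ADTN library 1 or 3 (up to 0.0596). The one entry higher with ADTN than with the other drugs had no symbol: ENSGALG00000019291 (chromosome 1, 60182541 to 60202082) held 192, 141, 166 and 213 CPM with ADTN against 142, 140.4, 136 and 132 CPM in FDM (0.37 ± 0.10, adjusted p = 0.0545), and was higher by 0.46 against the other injected groups (adjusted p = 0.00244; 0.0596 without ADTN library 1). None of the 15 tested peptide genes was called against FDM (edgeR; 3 with an unadjusted p under 0.05, 1 by DESeq2, 0 by limma voom), and glucagon (GCG, -0.19) and neurotensin (NTS, -0.35) were among them. The call by DESeq2 was somatostatin (SST, adjusted p = 0.0179), at 4.06, 3.19, 2.07 and 1.22 CPM with ADTN, against 1.04, 0.284, 0.391 and 0.697 CPM in FDM (2.07 ± 0.56, adjusted p = 0.0569 by edgeR). Its groups did not overlap.

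Negative-feedback genes of ERK signalling, which are transcribed when growth factor or activity signals reach ERK and then restrain it, included 2 of the 3 rises that held without any single library. Of 17 tested members 4 rose, 15 had a positive change and the median change was 0.46, against 0.00098 over all entries. Against the other injected groups the median of these members was 0.05, and against FDM at 24 h it was 0.13. Over all tested entries 0.419% were called higher and 0.337% lower, and 50.1% had a positive change. These shares stand beside the list counts below. SPRY2, an inhibitor of receptor tyrosine kinase signalling (ENSGALG00000016906, chromosome 1, 152670026 to 152675345), held 52.8, 50.1, 70.2 and 51.1 CPM with ADTN, against 31.2, 30.4, 25.3 and 25.7 CPM in FDM. The groups were separate, and the rise was 1.00 ± 0.13 on the log2 scale (adjusted p = 6.55e-06). The phosphatase DUSP6, which removes the activating phosphates of ERK (chromosome 1, 43288467 to 43292808), held 83.0, 101, 87.1 and 74.4 CPM with ADTN, against 60.7, 50.7, 48.5 and 51.4 CPM in FDM, again with no overlap (0.71 ± 0.11, adjusted p = 0.000355). Leaving out any single library kept both calls, with adjusted p up to 0.000278 for SPRY2 and 0.0076 for DUSP6.

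The 2 genes differed in how the other injected groups stood. SPRY2 was as high there, at 69.3 ± 8.06 CPM with atropine, 62.5 ± 7.18 CPM with pirenzepine and 53.0 ± 5.71 CPM with TPMPA, and the difference of ADTN from these groups was -0.13 (interval -0.34 to 0.08), while untreated retina held 34.1 ± 0.688 CPM. DUSP6 averaged 86.3 ± 11 CPM with ADTN, 89.8 ± 6.74 CPM with TPMPA, 63.1 ± 6.24 CPM with atropine, 63.3 ± 6.31 CPM with pirenzepine and 74.6 ± 8.27 CPM in untreated retina. Its difference of 0.28 from the injected groups together (interval 0.10 to 0.46) did not pass over all entries (adjusted p = 0.175).

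ETV4, a transcription factor that ERK signalling induces (chromosome 27, 3550459 to 3562778), rose to 17.7, 25.0, 22.8 and 10.5 CPM with ADTN, against 5.59, 7.10, 8.15 and 9.50 CPM in FDM (1.33 ± 0.29, adjusted p = 0.018). PHLDA1, a small cytoplasmic protein induced by growth factors (chromosome 1, 37937947 to 37938426), rose by 0.86 ± 0.19 (adjusted p = 0.0217), to 53.6 ± 5.60 CPM with ADTN against 29.7 ± 4.25 CPM in FDM. Neither overlapped. The call of ETV4 was lost without ADTN library 2 or 3 or FDM library 2, 3 or 4 (adjusted p up to 0.103), and that of PHLDA1 without ADTN library 1, 2 or 3 or FDM library 2, 3 or 4 (up to 0.134). Members that did not pass include ETV5 (0.46, adjusted p = 0.0675), IL17RD (0.64, adjusted p = 0.346) and DUSP4, at 6.4 CPM with ADTN and 5.01 CPM in FDM, with 13.6 CPM in untreated retina (0.35, adjusted p = 0.506).

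Of 31 immediate early genes, which respond to activity within minutes, FOS rose and 25 had a positive change (median 0.33). Against the other injected groups the median of this list was -0.07. FOS (ENSGALG00000028037, chromosome 5, 38264804 to 38267713) stood at 20.3, 38.2, 24.1 and 21.6 CPM with ADTN, against 11, 8.66, 9.32 and 6.80 CPM in FDM. All ADTN libraries were higher (1.53 ± 0.39, adjusted p = 0.0414), near the untreated mean of 28.7 ± 5.35 CPM. The call was lost without ADTN library 1, 2 or 3 or FDM library 2, 3 or 4 (adjusted p up to 0.198). FOS averaged 26.0 CPM with ADTN, 25.9 CPM with atropine, 40.4 CPM with pirenzepine and 85.9 ± 84.0 CPM with TPMPA. The difference of ADTN from these groups was -0.78 (interval -1.40 to -0.17, adjusted p = 0.245). EGR1, whose protein marks a class of amacrine cells that responds to the sign of defocus in chicks (chromosome 13, 18348955 to 18351756), held 29.7, 47.8, 49.4 and 61.0 CPM with ADTN and 21.7, 20.3, 20.9 and 24.0 CPM in FDM. It did not overlap either, but its spread with ADTN was wide and the difference of 1.11 ± 0.43 did not pass (adjusted p = 0.218). EGR1 averaged 62.4 CPM with atropine, 89.1 CPM with pirenzepine and 154 ± 175 CPM with TPMPA. ADTN differed from them by -1.02 (interval -1.74 to -0.30, adjusted p = 0.202). NR4A1 (0.68, adjusted p = 0.161) and FOSL2 (1.23, adjusted p = 0.101) were also above FDM without passing, and BDNF (0.04) and ATF3 (-0.14) were close to it.

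Genes of cytokine and STAT signalling rose, 5 of 25 tested, with 18 positive changes and a median of 0.48. Over all entries 0.419% rose and 50.1% had a positive change. STAT3, the transcription factor of this pathway (ENSGALG00000003267, chromosome 27, 5319501 to 5330786), held 378, 449.7, 341 and 254 CPM with ADTN, against 207, 191, 191 and 193 CPM in FDM. The FDM libraries lay close together and all ADTN libraries above them, with ADTN library 4 the lowest of its group (0.86 ± 0.18, adjusted p = 0.0165). SOCS3, its feedback inhibitor (chromosome 18, 9931036 to 9933083), held 8.34, 28.2, 8.78 and 3.95 CPM with ADTN, against 0.447, 0.284, 0.912 and 1.48 CPM in FDM (3.90 ± 0.95, adjusted p = 0.0328). CISH, another inhibitor of this family, rose to 23.3, 55.0, 18.9 and 19.7 CPM with ADTN, against 16.7, 12.2, 9.84 and 11.9 CPM in FDM (1.20 ± 0.30, adjusted p = 0.0414). IRF1, an interferon-response factor (chromosome 13, 16977371 to 16983282), rose by 3.22 ± 0.76 (adjusted p = 0.0278), at 11.3 ± 6.65 CPM with ADTN and 1.17 ± 0.714 CPM in FDM. NFKB2, a subunit of NF-kB, rose by 0.67 ± 0.17 (adjusted p = 0.0392) with overlap between the groups. Each of these 5 calls was lost without ADTN library 1 or 2 or FDM library 2, 3 or 4, and those of SOCS3, IRF1 and NFKB2 also without ADTN library 3. The adjusted p reached 0.107 for STAT3, 0.195 for SOCS3, 0.36 for CISH, 0.147 for IRF1 and 0.272 for NFKB2.

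For these genes ADTN was not told apart from the other injected groups. STAT3 averaged 463 ± 34.2 CPM with atropine, 524 ± 103 CPM with pirenzepine and 335 ± 22.8 CPM with TPMPA, and the interval of the difference from ADTN held 0 for STAT3 (-0.59 to 0.02), SOCS3 (-1.96 to 0.51), IRF1 (-1.07 to 1.04) and CISH (-0.47 to 0.49). Of the 66 entries that rose against FDM, this interval held 0 for 34, and the median difference from the other injected groups was 0.23; for the 53 that fell, it held 0 for 13, with a median of -0.25.

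**Figure D2:**
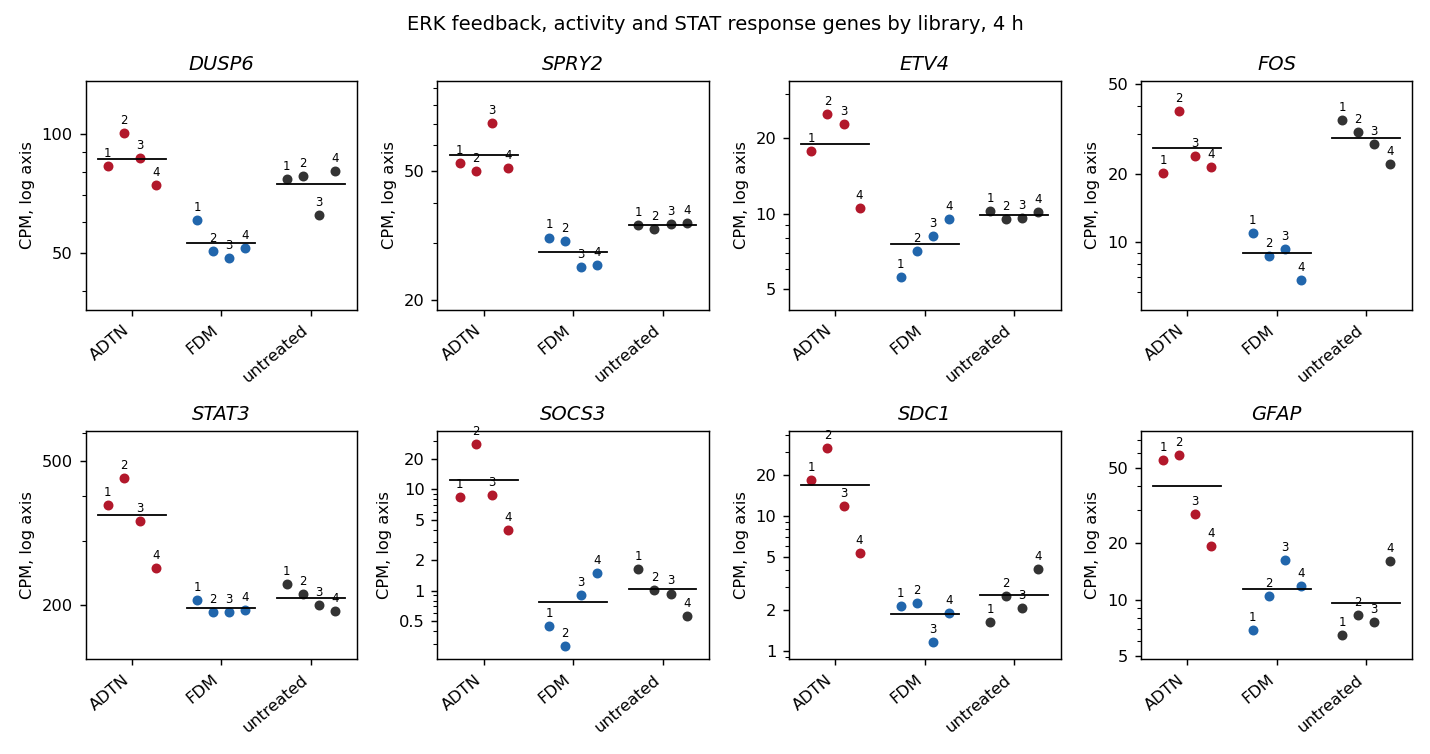
CPM of 8 genes in each 4 h library on a log axis, by group, with library numbers; lines are group means. For SPRY2, DUSP6, FOS and STAT3 all ADTN libraries lie above all FDM libraries; for STAT3, SOCS3, SDC1 and GFAP ADTN library 4 is the lowest of its group.

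Among 28 interferon-stimulated genes, which cells induce during antiviral defence, 3 rose, 27 had a positive change and the median was 1.25. Besides IRF1 these were ZNFX1, an RNA helicase (26.9, 39.7, 26.1 and 10.2 CPM with ADTN against 9.32, 4.54, 3.91 and 5.58 CPM in FDM; 2.13 ± 0.55, adjusted p = 0.049), and IFITM5. IFITM5 belongs to the interferon-induced transmembrane family but is best known in mammals from bone (chromosome 5, 1556571 to 1558140), and it held 17.6, 17.3, 13 and 12.8 CPM with ADTN, against 5.89, 5.82, 5.87 and 6.45 CPM in FDM. No library overlapped and the rise was 1.33 ± 0.28 (adjusted p = 0.0153). IFITM5 averaged 31.7 ± 3.18 CPM with atropine, 30.4 ± 10.1 CPM with pirenzepine and 14.9 ± 3.10 CPM with TPMPA. The difference of ADTN from these groups was -0.68 (interval -1.13 to -0.23, adjusted p = 0.181), so the rise was not particular to ADTN. Its call was lost without ADTN library 1 or 2 or FDM library 2, 3 or 4 (adjusted p up to 0.0764), and that of ZNFX1 also without ADTN library 3 (up to 0.195). ENSGALG00000045199, the entry that ends just before IFITM5 on the same strand (chromosome 5, 1554590 to 1556262) and was chosen after its values were seen, rose as much, to 64.2, 69.8, 56.5 and 40.7 CPM with ADTN against 26.4, 25.1, 23.8 and 18.9 CPM in FDM (1.30 ± 0.26, adjusted p = 0.0108; 0.0764 at most, without ADTN library 2 or FDM library 2 or 4). Antiviral effectors had larger changes that did not pass: RSAD2 3.95 (adjusted p = 0.152), OASL 3.51 (0.0673) and MX1 3.19 (0.213).

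In the list of Müller glia and glial reactivity GFAP, STAT3 and SOCS3 rose, 3 of 24, with 17 positive changes and a median of 0.21. GFAP, the intermediate filament of reactive glia (chromosome 27, 1466576 to 1470293), held 55.2, 58.3, 28.5 and 19.2 CPM with ADTN, against 6.86, 10.5, 16.2 and 11.8 CPM in FDM. All ADTN libraries were above FDM, libraries 1 and 2 by the most. The rise of 1.82 ± 0.41 (adjusted p = 0.024) was lost without ADTN library 1 or 2 or FDM library 2 or 4 (up to 0.122). GFAP was as high in the other injected groups, at 46.3 ± 4.35 CPM with atropine, 49.1 ± 3.13 CPM with pirenzepine and 37.1 ± 5.33 CPM with TPMPA. The difference of ADTN from them was -0.12 (interval -0.76 to 0.52). Genes of resting Müller glia did not pass, with GLUL, glutamine synthetase, at -0.25 (adjusted p = 0.416) and RLBP1, a retinoid carrier, at -0.23 (adjusted p = 0.411). In whole tissue, fewer cells of a type and less RNA per cell cannot be told apart. Beside these rises, all 21 tested vessel and pecten genes had a positive change (median 2.17, 3 without overlap) and none was called (edgeR; 13 with an unadjusted p under 0.05, 2 by DESeq2, 0 by limma voom). VWF of endothelial cells, for example, held 127, 66.3, 115 and 23.0 CPM with ADTN, against 23.1, 2.27, 0.326 and 4.71 CPM in FDM. Of 18 leukocyte and microglial genes 17 had a positive change (median 0.39) and 0 were called (6 with an unadjusted p under 0.05, 1 by DESeq2, 0 by limma voom). With the vessel score as a covariate no cytokine, interferon or glial member was called. The estimates were then 2.01 for GFAP, 0.79 for STAT3, 3.63 for SOCS3, 1.21 for CISH and 1.33 for IFITM5, close to those without it, but 2.27 for IRF1 and 1.10 for ZNFX1. The median of the interferon-stimulated genes was 0.45 with that score, in place of 1.25.

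Of 25 BMP and TGF-beta genes TGFB2 and TGFBI rose, with 20 positive changes and a median of 0.26. With the vessel score as a covariate that median was 0.09. TGFB2, a secreted ligand that in many tissues drives matrix production (chromosome 3, 19369482 to 19432348), held 63.0, 79.5, 49.6 and 28.6 CPM with ADTN, against 38.2, 21.4, 17.7 and 20.7 CPM in FDM (1.17 ± 0.25, adjusted p = 0.0182). TGFBI, a matrix protein that TGF-beta induces (chromosome 13, 15233049 to 15253728), held 134, 91.1, 86.9 and 21.9 CPM with ADTN, against 46.5, 22.7, 17.1 and 21.7 CPM in FDM (1.63 ± 0.42, adjusted p = 0.0475). ADTN library 4 overlapped with FDM for both genes, and FDM library 1 was the highest of its group. FDM library 1 and ADTN libraries 1 to 3 also hold more 7SK. With 7SK as a covariate TGFB2 was still called (0.92, adjusted p = 0.0117) and TGFBI was not (1.36, adjusted p = 0.128). With the vessel score neither was called, at 0.77 for TGFB2 (adjusted p = 0.179) and 0.79 for TGFBI (adjusted p = 0.347). The calls were lost without ADTN library 1 or 2 or FDM library 2, 3 or 4, and for TGFBI also without ADTN library 3 (adjusted p up to 0.134 for TGFB2 and 0.225 for TGFBI). BMP2, a ligand whose expression in the chick pigment epithelium follows eye growth, held 5.45 ± 0.989 CPM with ADTN and 4.51 ± 0.666 CPM in FDM, both below the untreated 15.1 ± 3.82 CPM, with a difference of 0.27 ± 0.61 (adjusted p = 0.871). SMAD6, an inhibitor of BMP signalling (0.97, adjusted p = 0.0757), and CHRD, chordin, which binds BMPs (2.00, adjusted p = 0.0518), did not pass.

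Among 43 matrix and integrin genes SDC1, a cell-surface proteoglycan, rose by 3.19 ± 0.79 (adjusted p = 0.0385), and 32 had a positive change (median 0.48). With the vessel score as a covariate the median of this list was 0.02, and SDC1 was at 3.02 and not called. Without that score the list median at 24 h was -0.12. SDC1 held 18.4, 31.7, 11.9 and 5.32 CPM with ADTN against 2.16, 2.27, 1.17 and 1.92 CPM in FDM. Its means were 49.8 ± 7.23 CPM with atropine, 62.6 ± 27.8 CPM with pirenzepine and 17.6 ± 4.40 CPM with TPMPA. The difference of ADTN from these groups was -1.17 (interval -2.29 to -0.06, adjusted p = 0.332). IGFBP5, which binds insulin-like growth factors, rose by 1.96 ± 0.47 (adjusted p = 0.029), with 78.6, 84.9, 52.0 and 20.1 CPM with ADTN against 37.6, 7.10, 8.28 and 6.45 CPM in FDM. ADTN library 4 lay below FDM library 1 for IGFBP5, so the groups overlapped. IGFBP5 averaged 36.1 CPM with atropine, 38.8 CPM with pirenzepine and 45.7 CPM with TPMPA. The interval of its difference from ADTN held 0 (-0.15 to 1.27). Both calls were lost without ADTN library 1, 2 or 3 or FDM library 2, 3 or 4 (adjusted p up to 0.191 for SDC1 and 0.162 for IGFBP5). The 2 largest fitted rises were of genes close to 0 in FDM. TGM4, a transglutaminase, held 0.165, 31.3, 4.49 and 0.456 CPM with ADTN and at most 0.284 CPM in FDM, and AVD, avidin, held 2.52, 44.7, 6.15 and 0.304 CPM with ADTN and at most 0.447 CPM in FDM. ADTN library 2 was far above the others for both genes, and ADTN library 1 of TGM4 and library 4 of AVD lay within the FDM range. ADTN libraries 1 to 3 of AVD all lay above FDM. Without ADTN library 2 the fitted log2 change was 4.20 for TGM4, in place of 6.58, and 4.11 for AVD, in place of 6.25. The call of TGM4 (adjusted p = 0.0232) was lost without ADTN library 2 or FDM library 2, 3 or 4 (up to 0.245). That of AVD (adjusted p = 0.0475) was lost without ADTN library 1, 2 or 3 or FDM library 2, 3 or 4 (up to 0.312). With atropine, pirenzepine and TPMPA, TGM4 averaged 4.39, 0.616 and 3.10 CPM, and AVD 9.05, 0.973 and 3.27 CPM. ADTN was higher than these groups by 2.11 for TGM4 (interval 0.59 to 3.64) and 2.13 for AVD (0.42 to 3.84). Neither passed (adjusted p = 0.207 and 0.247). TMC7, of a family of membrane channel proteins, showed another pattern. It held 19.7, 20.3 and 20.9 CPM in ADTN libraries 1 to 3 and 2.28 CPM in library 4. FDM held 0.959 to 2.83 CPM (3.34 ± 0.79, adjusted p = 0.0289). The call was lost without ADTN library 1, 2 or 3 or FDM library 2, 3 or 4 (up to 0.152). TMC7 averaged 11.3 CPM with atropine, 2.76 CPM with pirenzepine and 4.55 CPM with TPMPA. ADTN was higher than these groups by 1.59 (interval 0.52 to 2.65), which did not pass (adjusted p = 0.187).

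Some genes of the clock and of photoreceptors were lower with ADTN than in FDM. For several of them FDM library 1 stood nearer to the ADTN libraries than to FDM libraries 2 to 4. PER3, a period gene that represses the clock's own activators (chromosome 21, 272583 to 291803), held 50.02, 48.3, 50.7 and 98.9 CPM with ADTN, against 83.0, 231, 219 and 213 CPM in FDM (-1.59 ± 0.36, adjusted p = 0.0232). ADTN library 4 exceeds FDM library 1, and untreated retina held 101 ± 10.3 CPM. The PER3 means were 114 CPM with atropine, 91.5 CPM with pirenzepine and 103 CPM with TPMPA, all below the FDM mean of 186 CPM and above the ADTN mean of 62.0 CPM. ADTN differed from these groups by -0.72 (interval -1.33 to -0.12), which did not pass (adjusted p = 0.262). PER2, another period gene (chromosome 9, 5502475 to 5526782), held 325, 323, 321 and 409 CPM with ADTN, against 403, 661, 494 and 571 CPM in FDM (-0.63 ± 0.15, adjusted p = 0.0277). These 2 were the calls among 21 clock genes, of which 11 had a negative change. Their partner on the activating side, ARNTL, ran the other way without passing (0.59 ± 0.18, adjusted p = 0.0922). It held 166, 186, 200.2 and 194 CPM with ADTN against 179, 102, 114 and 101 CPM in FDM. Untreated libraries held 178, 160, 196 and 199 CPM of ARNTL, and the other injected libraries 148 to 241 CPM. FDM libraries 2 to 4 thus lay below all of these. The calls of PER3 and PER2 were lost without ADTN library 1, 2 or 3 or FDM library 2, 3 or 4 (adjusted p up to 0.111 and 0.193). With 7SK or the vessel score as a covariate no clock gene was called, while the estimates were -1.40 and -1.34 for PER3 and -0.56 and -0.51 for PER2. With ARNTL as a covariate they were -0.69 for PER3 and -0.30 for PER2.

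TPH1, the first enzyme from tryptophan to serotonin and melatonin in photoreceptors and the pineal gland (chromosome 5, 12458129 to 12468744), rose to 64.0, 54.0, 66.9 and 39.7 CPM with ADTN, against 39.1, 16.6, 14.6 and 12.4 CPM in FDM. The lowest ADTN library lay just above FDM library 1, and the rise was 1.44 ± 0.28 (adjusted p = 0.00824, up to 0.0764 without FDM library 2, 3 or 4). It was the single call among 8 melatonin genes. AANAT, the enzyme whose night rise times melatonin, held 90.3, 85.4, 87.9 and 59.8 CPM with ADTN against 56.7, 50.1, 53.9 and 46.7 CPM in FDM, without overlap, and did not pass (0.64 ± 0.18, adjusted p = 0.0673). ASMT, the last enzyme of the path (-0.58, adjusted p = 0.322), and the receptor MTNR1A (-1.08, adjusted p = 0.0841) had negative differences.

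In phototransduction 4 of 28 genes fell, 21 had a negative change and the median was -0.25. With total count as a covariate the median was -0.04, with 15 negative changes. Against the other injected groups the median of this list was -0.00092, so the list as a whole was not lower there. CNGA3, the channel subunit that carries the light response of cones (chromosome 1, 131977565 to 131997623), held 100.5, 98.1, 99.8 and 124 CPM with ADTN, against 162, 196, 177 and 191 CPM in FDM. GUCA1C, an activator of guanylate cyclase that restores cyclic GMP after light (chromosome 1, 87707512 to 87728548), held 88.1, 102, 77.1 and 101 CPM with ADTN, against 120.4, 173, 133 and 157 CPM in FDM. Neither overlapped, in contrast to the other pair. PDE6B, a catalytic subunit of the phosphodiesterase that light activates in rods (chromosome Z, 53489854 to 53511537), held 101, 112, 99.5 and 117 CPM with ADTN, against 113, 272, 259 and 297 CPM in FDM. GRK7, the kinase that quenches cone opsins (chromosome 9, 10272659 to 10289497), held 119, 147, 131 and 179 CPM with ADTN, against 156, 286, 248 and 295 CPM in FDM.

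On the log2 scale these were falls by 0.78 ± 0.15 for CNGA3 (adjusted p = 0.00837), 0.66 ± 0.13 for GUCA1C (0.00824), 1.13 ± 0.25 for PDE6B (0.0215) and 0.77 ± 0.18 for GRK7 (0.0257). The call of CNGA3 was lost without FDM library 2 or 4 (adjusted p up to 0.069), that of GUCA1C without ADTN library 3 or FDM library 2 or 4 (0.0761), and those of PDE6B and GRK7 without ADTN library 1, 2 or 3 or FDM library 2, 3 or 4 (0.12 and 0.152). Untreated means were 149 ± 23.6 CPM for CNGA3, 112 ± 12.8 CPM for GUCA1C, 154 ± 27.8 CPM for PDE6B and 173 ± 28.3 CPM for GRK7. PDE6B averaged 171 CPM with atropine, 143 CPM with pirenzepine and 140 CPM with TPMPA, between ADTN (107 CPM) and FDM (235 CPM). CNGA3 averaged 133, 117 and 136 CPM in these groups, also between ADTN (106 CPM) and FDM (182 CPM). The difference of ADTN from them was -0.28 for CNGA3 (interval -0.54 to -0.03) and -0.49 for PDE6B (interval -0.91 to -0.07). Neither passed (adjusted p = 0.305 and 0.271). The rod channel subunits CNGA1 (0.56, adjusted p = 0.107) and CNGB1 (0.52, adjusted p = 0.19) had positive differences that did not pass, so the photoreceptor genes did not share one sign.

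Related genes outside that list also fell. C2orf71, which encodes an actin regulator of the photoreceptor cilium, held 190.5, 158, 175 and 225 CPM with ADTN, against 186, 333, 321 and 319 CPM in FDM (-0.63 ± 0.13, adjusted p = 0.00916; up to 0.0764 without ADTN library 2 or FDM library 2, 3 or 4). The entry that the table calls RBP4 and describes as purpurin, a retinol carrier that chick photoreceptors secrete (chromosome Z, 53526993 to 53532383), held 247, 318, 203 and 326 CPM with ADTN, against 377, 832, 463 and 592 CPM in FDM (-1.05 ± 0.22, adjusted p = 0.0171; up to 0.148 without ADTN library 1 or 3 or FDM library 2 or 4). It is among the 100 densest entries, where the log-log slope of counts on library depth was 0.483, compared with 1.16 at middle density, and a slope under 1 raises CPM in shallower libraries. With total count as a covariate its fall was 0.64 (adjusted p = 0.0136). The purpurin entry averaged 334 CPM in untreated retina, 324 CPM with atropine, 327 CPM with pirenzepine and 334 CPM with TPMPA. The FDM mean was 566 CPM and the ADTN mean 273 CPM. The interval of the difference of ADTN from the other injected groups held 0 (-0.26, -0.63 to 0.11).

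Set against FDM library 1 alone, in a fit chosen after the data were seen, no entry was called (edgeR), although 118 of the 119 called entries had the same sign. The median ratio of that change to the change against all 4 FDM libraries was 0.748 for entries that rose and 0.541 for those that fell, and 32 entries kept under 0.5 of their size. PER3 was then at -0.42, PDE6B at -0.07, GRK7 at -0.12, PER2 at -0.23 and TPH1 at 0.52, while CNGA3 stayed at -0.62, OPN4-1 at -0.51, SLC4A5 at -0.31, SPRY2 at 0.84 and DUSP6 at 0.51. These are differences from a single FDM library.

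**Figure D3:**
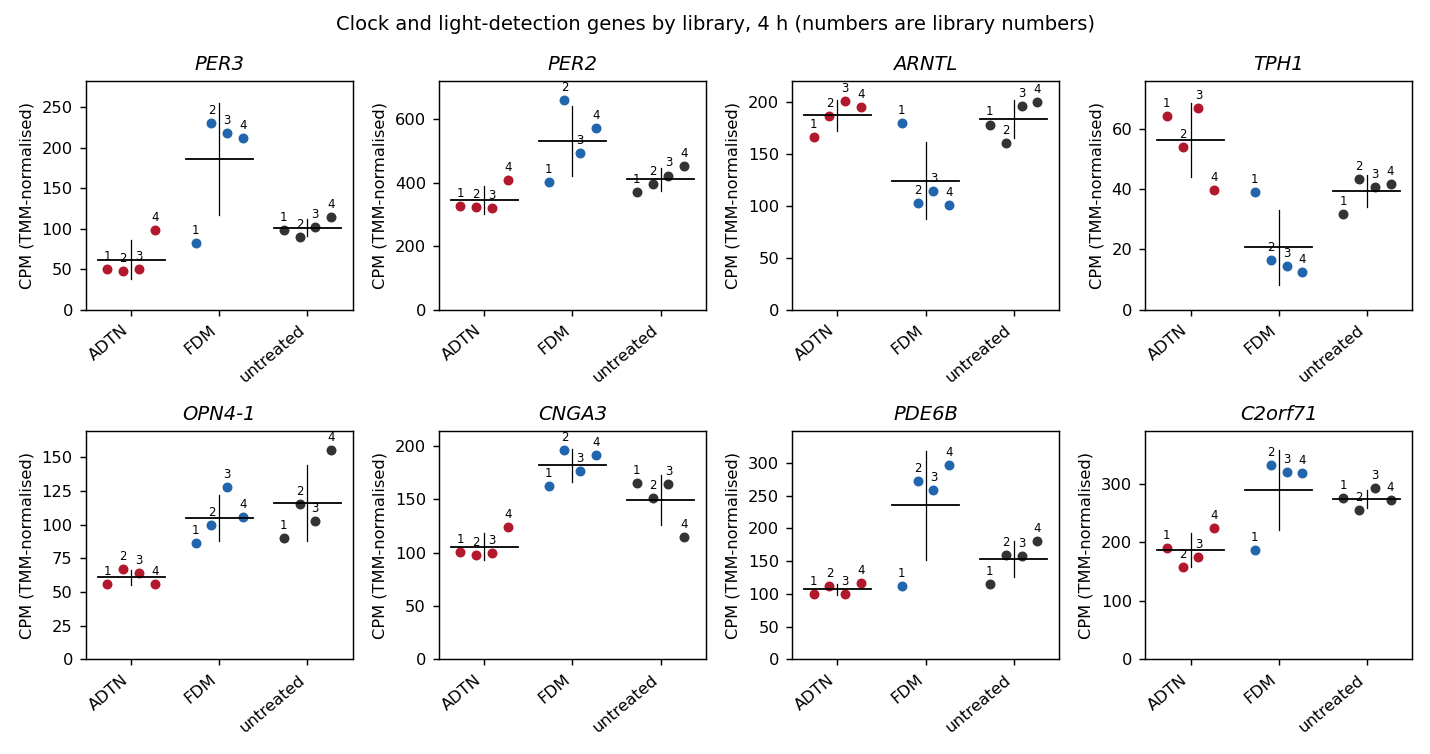
CPM of 8 clock and light-detection genes in each 4 h library, by group, with library numbers, the group mean and SD. FDM library 1 lies nearer to the ADTN libraries than to FDM libraries 2 to 4 for PER3 (83.0 CPM against 213 to 231 CPM in FDM libraries 2 to 4), PDE6B and C2orf71. For OPN4-1 and CNGA3 it is again the lowest of its group, and all ADTN libraries lie below it.

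Some receptors and channels of inner retinal neurons fell by small amounts. Of 39 GABA, glycine and glutamate receptor genes 3 fell, 27 had a negative change and the median was -0.13. Among the 3 that fell was GRIK1, a kainate receptor through which OFF bipolar cells receive cone input (-0.36 ± 0.08, adjusted p = 0.0277). It averaged 393 ± 36.1 CPM with ADTN and 503 ± 44.6 CPM in FDM. The groups did not overlap, and the call of GRIK1 was lost without ADTN library 1, 2 or 3 or FDM library 2, 3 or 4 (adjusted p up to 0.166).

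Of 38 potassium channel genes 2 fell and 19 had a negative change. KCNMA1, the large-conductance channel opened by calcium and depolarisation (chromosome 6, 13482042 to 13799990), held 185, 182, 181 and 185 CPM with ADTN, against 229.7, 231, 234 and 252 CPM in FDM. The spread within each group was narrow, and the gene fell by 0.37 ± 0.08 (adjusted p = 0.0232). KCNG4, a silent subunit that modifies other channels, held 32.3 ± 2.69 CPM with ADTN and 45.5 ± 2.16 CPM in FDM (-0.49 ± 0.12, adjusted p = 0.0277). CALB1, the calcium buffer calbindin of horizontal and other neurons, held 196, 239, 244 and 293 CPM with ADTN, against 298, 444, 340.4 and 412 CPM in FDM (-0.62 ± 0.14, adjusted p = 0.0266). None of these overlapped. The calls of KCNMA1 and CALB1 were lost without ADTN library 1, 2 or 3 or FDM library 2, 3 or 4 (up to 0.123 and 0.158), and that of KCNG4 without ADTN library 1 or 2 or FDM library 2, 3 or 4 (up to 0.116). Muscarinic receptors and acetylcholine handling had 14 negative changes among 17 genes (median -0.21) and 0 calls (edgeR; 4 with an unadjusted p under 0.05, 1 by DESeq2, 0 by limma voom).

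Calls among metabolic and protein-handling genes are given by list, beside the 0.756% of all tested entries that were called. PDK4, a mitochondrial kinase that spares glucose and that glucocorticoids induce, was the call among 13 glucocorticoid-responsive genes (106, 105, 139 and 121 CPM with ADTN, against 84.9, 61.9, 65.4 and 61.5 CPM in FDM; 0.78 ± 0.18, adjusted p = 0.0278). PDIA4, a disulfide isomerase of the endoplasmic reticulum, was the call among 22 genes of amino acid stress and the unfolded protein response (103, 137, 102 and 116 CPM with ADTN, against 88.8, 89.4, 85.0 and 88.4 CPM in FDM; 0.38 ± 0.10, adjusted p = 0.0433). Neither overlapped between the groups. Both calls were lost without ADTN library 1, 2 or 3 or FDM library 2, 3 or 4 (adjusted p up to 0.145 for PDK4 and 0.278 for PDIA4). Cytosolic ribosomal protein genes had 63 negative changes among 64 (median -0.17) and nuclear genes of oxidative phosphorylation 45 among 51 (median -0.08); none was called by edgeR (2 and 7 with an unadjusted p under 0.05, 0 and 1 by DESeq2, 0 by limma voom for both). Total counts were mostly lower in FDM, and with total count as a covariate the ribosomal median turned to 0.06, with 7 negative changes, and that of oxidative phosphorylation was -0.0017, with 26.

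Genes of dopamine itself were not detectably changed at this spread. None of 16 tested genes of dopamine synthesis, transport and reception was called (edgeR; 2 with an unadjusted p under 0.05, 0 by DESeq2, 0 by limma voom), and 8 had a positive and 8 a negative change (median 0.01). Among receptors, DRD1 held 94.1, 81.0, 99.4 and 79.9 CPM with ADTN, against 90.5, 76.4, 85.0 and 82.3 CPM in FDM (0.08 ± 0.08, adjusted p = 0.676). DRD4, the receptor of photoreceptors, averaged 252 ± 31.3 CPM with ADTN and 264 ± 23.1 CPM in FDM (-0.07 ± 0.11, adjusted p = 0.817). DRD2 (-0.25, adjusted p = 0.551) and DRD5 (-0.19, adjusted p = 0.379) did not pass either. Tyrosine hydroxylase, the rate-limiting enzyme of dopamine synthesis, whose symbol the table spells out and which is not among the 16 (ENSGALG00000029648, chromosome 5, 13714517 to 13730918), stood at 3.78, 1.49, 3.68 and 3.42 CPM with ADTN, against 4.77, 4.83, 4.04 and 5.23 CPM in FDM. All ADTN libraries were lower, but at these low counts the difference of -0.60 ± 0.31 did not pass (adjusted p = 0.363), and at 24 h it was -0.66 (adjusted p = 0.607), with overlap. In the cyclic AMP and CREB pathway, which dopamine receptors drive, 1 of 21 genes fell: RAPGEF4, a guanine nucleotide exchange factor that binds cyclic AMP, at 144, 162, 161 and 211 CPM with ADTN against 196, 243, 229 and 219 CPM in FDM (-0.39 ± 0.09, adjusted p = 0.0287). Its groups overlapped and the call was lost without ADTN library 1, 2 or 3 or FDM library 2, 3 or 4 (up to 0.178).

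At 24 h far fewer entries were called, 6 or 0.0381% of those tested, with 2 higher (0.0127%) and 4 lower (0.0254%); 1237 had an unadjusted p under 0.05. IFITM5 and CADPS2 were called at both times. IFITM5 held 14.7, 12.4, 17.7 and 8.94 CPM with ADTN at 24 h, against 5.49, 4.19, 5.53 and 4.38 CPM in FDM (1.46 ± 0.28, adjusted p = 0.0277). The others were called at 24 h alone. CORIN, a membrane protease that activates natriuretic peptides, held 2.91, 2.51, 2.90 and 1.91 CPM with ADTN against 5.90, 6.04, 5.41 and 8.30 CPM in FDM (-1.31 ± 0.26, adjusted p = 0.0277; -0.48 at 4 h, adjusted p = 0.383). TMEM132D, a neuronal membrane protein, held 85.9 to 109 CPM with ADTN against 120.1 to 134 CPM in FDM (-0.39, adjusted p = 0.0277; -0.11 at 4 h). FAM83B fell by 1.80 and ENSGALG00000004604 rose by 0.87 (both adjusted p = 0.0277). The count of 6 was 2, 0, 1 and 15 without ADTN libraries 1 to 4 of that time and 2, 3, 1 and 3 without FDM libraries 1 to 4. CORIN was lost without any of the 8 libraries (adjusted p up to 0.109), IFITM5 without any but ADTN library 4 (0.131), FAM83B without any but FDM library 4 (0.218), ENSGALG00000004604 without any but ADTN library 4 or FDM library 4 (0.204) and TMEM132D without any but ADTN library 1 or FDM library 2 (0.137).

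Of the 4 h calls, 55 of 66 rises and 46 of 53 falls had the same sign at 24 h, against 51.2% positive changes over all entries, and the median change at 24 h was 0.32 for the rises and -0.16 for the falls. Without overlap in the same direction at 24 h were 12 of the rises and 6 of the falls, against 2.47% of all entries higher and 1.97% lower (4.44% in all). The 95% interval at 24 h held 0 for 41 of the rises and 37 of the falls. The difference between the 24 h and the 4 h change passed for no entry by edgeR (smallest adjusted p = 0.679; 1105 with an unadjusted p under 0.05), for 2 by DESeq2 and for 0 by limma voom. SPRY2 at 24 h still had all ADTN libraries above FDM, with 44.2, 45.7, 55.3 and 38.9 CPM against 30.1, 33.3, 28.5 and 35.5 CPM in FDM (0.53 ± 0.13, adjusted p = 0.108), as did FOS with 22.8 to 35.1 CPM against 11.5 to 15.1 CPM (1.08 ± 0.37, adjusted p = 0.427). EGR1 was higher in every ADTN library at 24 h too (1.39 ± 0.42, adjusted p = 0.316). BVES, a membrane protein of cell contacts that binds cyclic AMP, held 10.6, 15.9, 14.4 and 22.1 CPM with ADTN at 4 h, against 26.5, 30.1, 26.1 and 26.4 CPM in FDM (-0.79 ± 0.19, adjusted p = 0.0289). At 24 h all its ADTN libraries were again lower (14 to 17.7 CPM, against 23.6 to 35.4 CPM in FDM; -0.74 ± 0.19, adjusted p = 0.191). Its 4 h call was lost without ADTN library 1, 2 or 3 or FDM library 2, 3 or 4 (up to 0.182). BVES averaged 24.8 CPM with atropine, 29.2 CPM with pirenzepine and 25.2 CPM with TPMPA at 4 h, against 15.8 CPM with ADTN. The difference of ADTN from these groups was -0.75 (interval -1.07 to -0.43), with overlap, and did not pass (adjusted p = 0.0544). GLI2, a transcription factor of hedgehog signalling chosen after its values were seen, had a change of 0.88 ± 0.20 at 4 h (adjusted p = 0.0231; up to 0.104 without ADTN library 1 or 3 or FDM library 2, 3 or 4) and 0.90 ± 0.19 at 24 h (0.0518). Estimates near 0 at 24 h included TPH1 (-0.05), TGFB2 (0.01), CALB1 (0.01) and GRK7 (0.04). The change of TPH1 was smaller at 24 h than at 4 h by 1.49 ± 0.39, which did not pass (adjusted p = 0.679). At 24 h the vessel genes had a median change of -0.68, against 2.17 at 4 h.

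**Figure D4:**
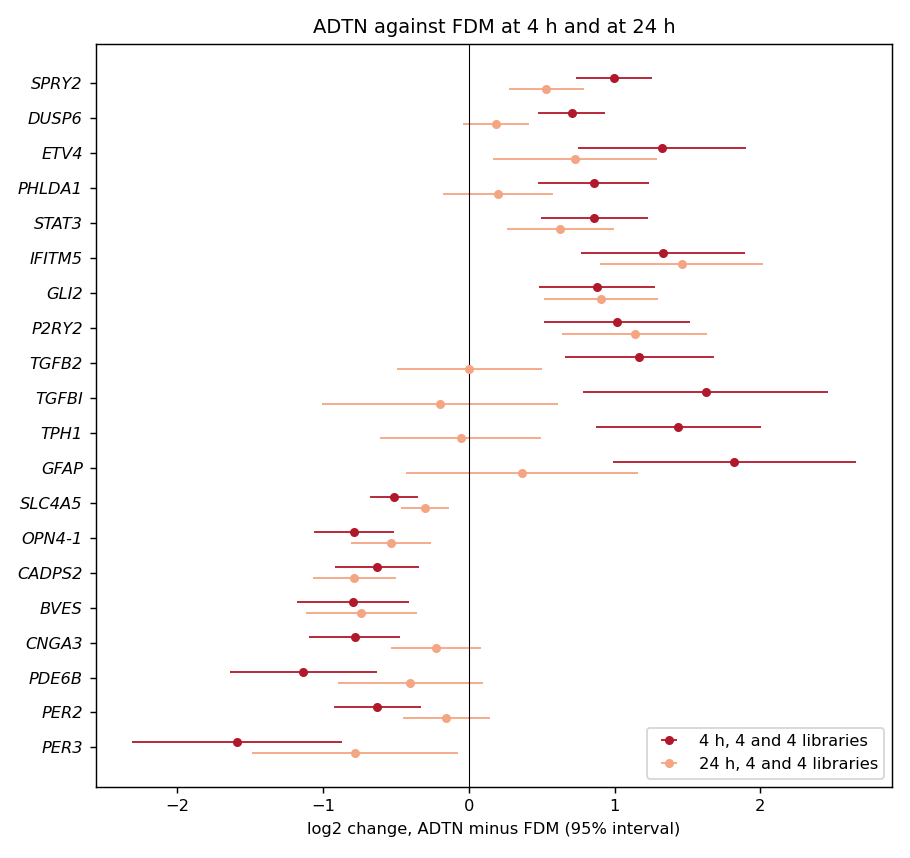
Log2 change of ADTN relative to FDM at 4 h and at 24 h for 20 genes, with 95% intervals. CADPS2 (-0.63 and -0.78) and IFITM5 (1.33 and 1.46) passed at both times, whereas TPH1 (1.44 at 4 h, -0.05 at 24 h) and the TGF-beta genes lie near 0 at 24 h.

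The number of calls depended on single libraries. Without FDM library 1 it was 496 and without ADTN library 4 it was 490, in place of 119; without FDM libraries 2, 3 and 4 it was 8, 27 and 8, and without ADTN libraries 1, 2 and 3 it was 22, 24 and 30. Calls that held in all 8 of these fits were 3 rises and 4 falls: SPRY2, DUSP6 and ENSGALG00000011865, and SLC4A5, OPN4-1, ENSGALG00000001604 and ENSGALG00000016499. The 3 entries without a symbol were chosen after their values were seen. ENSGALG00000011865 (chromosome 15, 10024930 to 10035563) held 132, 129, 119.7 and 137 CPM with ADTN, against 88.1, 71.5, 77.6 and 84.5 CPM in FDM (0.68 ± 0.09, adjusted p = 6.55e-06). ENSGALG00000001604 (chromosome 24, 2568408 to 2587817) held 159, 140.3, 137 and 164 CPM with ADTN, against 185, 257, 218 and 257 CPM in FDM (-0.61 ± 0.09, adjusted p = 0.00016). Neither overlapped, whereas ENSGALG00000016499 (chromosome 3, 104597130 to 104611882) did, with 74.9, 73.8, 85.5 and 117 CPM with ADTN against 107, 233, 192 and 198 CPM in FDM (-1.06 ± 0.17, adjusted p = 0.000348). Against FDM library 1 alone, ENSGALG00000016499 was at -0.29 and ENSGALG00000001604 at -0.30, so both falls were smaller there. With ARNTL as a covariate ENSGALG00000016499 was not called (adjusted p = 0.0629).

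**Figure D5:**
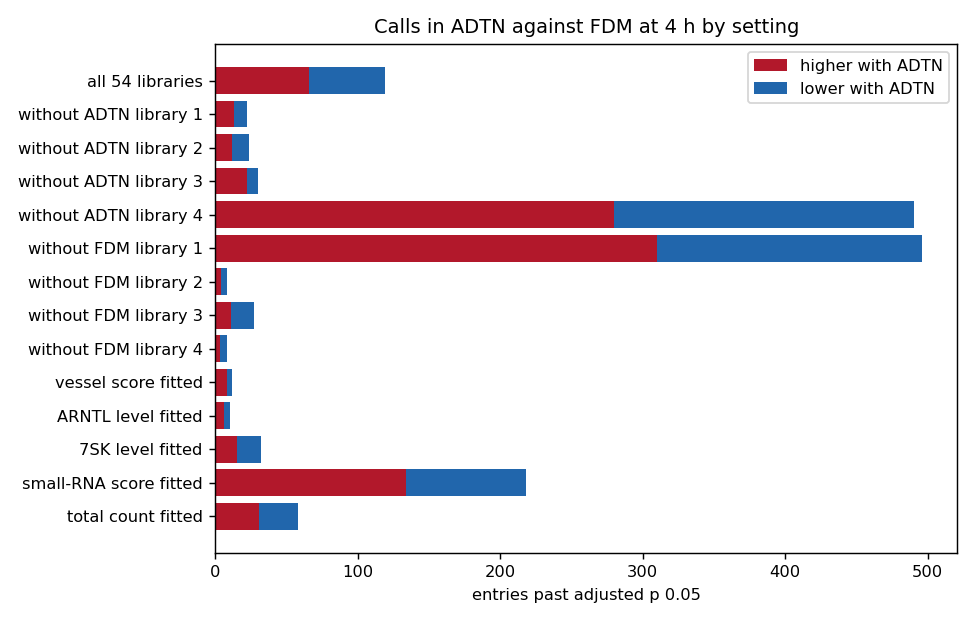
Number of entries called for ADTN against FDM at 4 h (bars, from 0) with all libraries, without each of the 8 libraries and with 5 covariates, higher and lower separately. The count of 119 was largest without FDM library 1 (496) or ADTN library 4 (490) and 8 without FDM library 2 or 4.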

How the data were processed

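RNA of whole retina was sequenced in 54 libraries of 14 groups, from Trizol extracts with an RNA integrity number above 7, with a directional kit on a NextSeq 500, per the labels' protocols. The authors deposited raw counts per transcript of each library, with transcript lengths and coordinates as other columns. The genome build galGal5 and the tools HISAT2 2.1, Trimmomatic 0.36, HOMER, limma and edgeR are listed, per the submitters' processing notes, without their roles.

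Of 38118 transcript entries (24881 gene identifiers), the one with the largest summed count was kept per symbol, or per identifier where no symbol is given, which left 24599; filterByExpr (minimum count 10, minimum total 15) kept 15746. Transcripts of a gene can share reads, and 2 pairs of called entries share a locus (KCNMA1 spelled in capitals and lower case, and the purpurin gene). After TMM normalisation the counts were modelled in edgeR 4.0.16 (robust glmQLFit, glmQLFTest; R 4.3.3) in one model of all 54 libraries and 14 groups, with two-sided p-values adjusted by Benjamini-Hochberg over the 15746 entries. The SE was derived as the absolute log2 change over the root of the F statistic. CPM are TMM-normalised counts scaled to library size, and ± after them is the SD over libraries (n = 4). The fit was tested on simulated data. Alternatives included DESeq2 1.42.0 and limma 3.58.1 (voom). No 2 of the 8 libraries agreed within sampling noise (chi-square per degree of freedom 7.14 to 35.2).

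The genes, lists and comparisons were chosen with earlier results of these data known. Named genes are the 12 largest rises and 12 largest falls with a symbol and a mean of at least 3 CPM, list members past the threshold, genes called in a second comparison, and genes followed whatever their result; the text gives part of them, and some genes are not reported here. Genes share depth and library, and rows of nearly identical copies may split reads.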

Additional observations from a re-analysis of the deposited data

Results flagged for a closer look

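Single libraries stood far from the other 3 of their group at 4 h in 31 of 202 groups of 4 libraries tested. The measure was Dixon's ratio above its 95% critical value. A chance rate of about 1 in 20 holds for independent values. These genes share the same 8 libraries and many were chosen for their change, so the count cannot be judged against that rate. FDM library 1 accounted for 13 of the 31, ADTN library 4 for 7, ADTN library 2 for 5, FDM library 2 for 3, FDM library 4 for 2 and ADTN library 3 for 1. Values are CPM and their causes were not tested.

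ADTN library 4 was high for PER3 (98.9, the others 48.3 to 50.7), PER2 (409, the others 321 to 325), CNGA3 (124, the others 98.1 to 100.5) and the lens gene CRYBB3 (1.44, the others 0.151 to 0.297). It was low for TMC7 (2.28, the others 19.7 to 20.9), AANAT (59.8, the others 85.4 to 90.3) and ERG, an endothelial factor (0.532, the others 4.83 to 5.37). ADTN library 2 was high for TGM4 (31.3, the others 0.165 to 4.49), AVD (44.7, the others 0.304 to 6.15), CISH (55.0, the others 18.9 to 23.3) and RPL35A (7.87, the others 0.932 to 2.05), and low for tyrosine hydroxylase (1.49, the others 3.42 to 3.78). ADTN library 3 was high for SPRY2 (70.2, the others 50.1 to 52.8).

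FDM library 1 was low for PER3 (83.0, the others 213 to 231), C2orf71 (186, the others 319 to 333), SLC4A5 (161, the others 192 to 196) and NDUFV3 (37.1, the others 52.4 to 54.4). It was high for TPH1 (39.1, the others 12.4 to 16.6), IGFBP5 (37.6, the others 6.45 to 8.28), IRF1 (2.24, the others 0.697 to 0.912), STAT3 (207, the others 191 to 193), PDK4 (84.9, the others 61.5 to 65.4) and ERG (1.27, the others 0 to 0.174). The same held for the ganglion cell genes EBF1 (28.6, the others 10.5 to 11.4) and POU4F1 (55.6, the others 34.5 to 37.9) and for MARCO, a macrophage receptor (1.12, the others 0). FDM library 2 was high for BVES (30.1, the others 26.1 to 26.5) and CRY1 (337, the others 275 to 281) and low for NMB (0.568, the others 1.27 to 1.39). FDM library 4 was high for IFITM5 (6.45, the others 5.82 to 5.89) and low for QDPR (45.0, the others 57.1 to 58.9).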

How the results depend on the processing

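The 119 calls for ADTN against FDM at 4 h, the 6 at 24 h, the 0 for the difference between the times and the 6 against the other injected groups stayed within 1.5 times with size factors of DESeq2, with no filter on low counts and with counts summed over transcripts (4 h counts 117, 93 and 117). In that order, DESeq2 called 321, 24, 2 and 61, and limma voom called 65 at 4 h and 51 against the other injected groups. With the small-RNA score as a covariate the counts at 4 h and against the other injected groups were 218 and 22, and with total count 58 and 14. With 7SK, a covariate chosen after the data were seen, they were 32 at 4 h and 10 at 24 h; with ARNTL 10 and 2. With the vessel score they were 12 at 4 h, 16 at 24 h and 3 against the other injected groups. Within libraries low in small RNA the counts were 75 at 4 h, 13 at 24 h and 1 for the difference, and within those high in it 2 at 4 h; no atropine or pirenzepine library falls in the high class at 4 h, so that comparison could not be fitted there. Fits limited to the groups of each comparison gave 32, 0 and 10 (4 h, 24 h, other injected). Leaving out each library gave 8 to 496 calls at 4 h, 0 to 15 at 24 h, 0 to 1 for the difference and 3 to 159 against the other injected groups. Without FDM libraries 2, 3 and 4 together the count was 0 and C2orf71 turned to 0.0057. For single named genes 1823 other values kept their side of the threshold, 531 lost it and 30 gained it. For genes not called in the main fit the 1823 include changes of sign, as for RPL35A (-2.13 to 3.31 over the settings). Same-numbered deviations of ADTN and FDM at 4 h correlated at 0.311, -0.032, 0.0446 and -0.0279, and differently numbered ones at -0.385 to 0.350. So few values do not settle whether replicate numbers pair the samples. With the replicate number as a block the counts were 270 at 4 h and 138 against the other injected groups. The cause of these shifts was not tested. Depth limits genes of a few CPM, such as tyrosine hydroxylase, and counts of the most abundant ones grew less than in proportion to depth.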

Other observations

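Over all tested entries 0.756% were called at 4 h, 0.419% higher and 0.337% lower. The counts for marker genes of retinal cell classes stand beside that share. Of 10 bipolar cell markers GRIK1 fell and 6 had a negative change (median -0.12), of 9 horizontal cell markers CALB1 fell and 6 had a positive change (median 0.06), and of 7 rod and 10 cone markers PDE6B and CNGA3 fell (medians 0.09 and -0.24). Of the cone markers 9 had a negative change and 6 an unadjusted p under 0.05. Of the rod markers 4 also had an unadjusted p under 0.05. Against the other injected groups the cone median was -0.00092. With total count as a covariate the medians were -0.09 for cone and -0.01 for amacrine markers, with 7 negative changes in each. None of 12 amacrine and 14 ganglion cell markers was called by edgeR (5 and 2 with an unadjusted p under 0.05, 0 by DESeq2 and 0 by limma voom for both); the medians were -0.19 and 0.07. Cell division genes had 0 calls among 23 (edgeR; 0 with an unadjusted p under 0.05, 0 by DESeq2 and 0 by limma voom), with a median of 0.06.

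Other entries that rose, chosen after their values were seen, include PHLDA2, a relative of PHLDA1, with 22.3, 34.3, 29.3 and 23.7 CPM with ADTN against 13.4, 9.65, 13.9 and 9.24 CPM in FDM (1.23 ± 0.23, adjusted p = 0.00564). P2RY2, a receptor for extracellular ATP and UTP, held 30.5, 26.4, 32.7 and 21.6 CPM with ADTN against 11.4, 12.6, 16 and 14.8 CPM in FDM (1.02 ± 0.25, adjusted p = 0.0325), and means of 49.9 CPM with atropine, 46.7 CPM with pirenzepine and 37.3 CPM with TPMPA. A pinopsin-like entry, ENSGALG00000016802, fell by 0.46 ± 0.11 (adjusted p = 0.0257), at 25.9 to 31.0 CPM with ADTN against 38 to 42.2 CPM in FDM.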
